A study of Mus musculus with 6 samples.

Results

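The 9 genes described here encode the 3 TGF-beta ligands (Tgfb1, Tgfb2, Tgfb3) and 6 secreted matrix and matricellular proteins: Tgfbi, Fn1, Thbs1, Thbs2, Ctgf and Cyr61. They were taken by gene name from the arrays' own annotation, where Ctgf and Cyr61 stand for the genes now called Ccn2 and Ccn1. They were measured by 10 probes in 28 spots, of 34797 gene names, 55681 probes and 59305 spots in all. Each gene had 1 probe except Tgfb2, which had 2. The probes of Tgfb1 and Tgfb3 were each printed in 10 spots.

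RNA came from mProx24, a mouse cell line labelled as proximal tubular and of strain C57B6, on 6 single-colour Agilent arrays with 1 array per condition. The control array, labelled NG PBS, was at 20% oxygen, as were the arrays with a single stimulus of high glucose (labelled HG PBS) or palmitate (labelled NG Pal, for high free fatty acids). Hypoxia (labelled NG PBS) was at 1% oxygen. Triple stimuli combined 1% oxygen, HG and Pal, and the last array added rapamycin, which blocks the growth kinase mTOR. By the labels' protocols, oxygen was lowered for 12 hours before palmitate, which was given at 150 µM for 9 hours bound to 0.15% albumin, and cells met rapamycin (0.4 µg/ml) for the 12 hours ahead of palmitate. No glucose concentration is given in the labels. The labels of the 2 single-stimulus arrays at 20% oxygen are in conflict, since the scanner file labelled high glucose holds the values that the deposited value table gives for high FFAs, and the reverse. They are called array A (high glucose by its scanner file) and array B (high FFAs by its scanner file), with no statement on which stimulus each received.

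Levels are log2 signals relative to the 75th percentile of the array, so that 0 is the signal of the spot at that percentile. A difference is a level on 1 array minus that on another, and a gene is counted as higher or lower where it differs by at least 2-fold. With 1 array per condition no value has a replicate error, no test was possible, and the number of arrays limits the precision. The error printed after ± is the scanner software's own estimate for the spots, combined over both arrays for a difference. It leaves out the spread between cultures. Of the 6 comparisons, 4 share the control array and 3 the triple stimuli array.

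On the arrays 40.3% to 43.8% of spots were well above background by the software's call, and 0 were saturated. One slide carried every array, with 20% oxygen in one slide row and 1% in the other. Oxygen and slide row therefore cannot be told apart. Of 16 proximal tubule markers, 8 were well above background on all 6 arrays (Lrp2, Cubn, Aqp1, Ggt1, Cdh16, Pax8, Krt8 and Krt18) and 8 on none, among them Slc34a1, Slc5a2 and Hnf4a. Of 8 fibroblast markers 6 were above background on no array, among them Pdgfra, Pdgfrb, Dcn and Lum, and the summed level of the list was between 0 and 0.179 times the 75th percentile. Of 7 leukocyte markers Csf1r, Cd68, Itgam and Cd3e were above background on all arrays and Ptprc, Emr1 and Lyz2 on none, with a summed level of 21.2 to 34.3. Of 7 endothelial markers Kdr alone was above background (7.32 to 9.92). Synpo alone of the podocyte and Aqp2 alone of the distal tubule markers were so on all arrays. As in any RNA extract, fewer cells of a type and less RNA per cell cannot be told apart.

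TGF-beta ligands are secreted as latent complexes bound to latency proteins and the matrix, and are released by integrins, proteases or thrombospondin-1. They signal through a pair of receptor kinases to Smad2 and Smad3, which enter the nucleus with Smad4. Tgfbi, Fn1, Thbs1, Ctgf and Cyr61 are matrix or matricellular genes that TGF-beta can induce in many cells, and in the kidney the pathway is best known for its part in fibrosis. Ctgf and Cyr61 are also textbook targets of the YAP and TAZ coactivators with TEAD factors.

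The 250 bases before the transcription start are shown for 4 genes of the set that had a promoter in the RefSeq table (build GRCm38.p6) and carry the contrast described below: Tgfbi, which was low on array A and under triple stimuli, and Cyr61, Tgfb2 and Tgfb1, which were highest on the arrays with triple stimuli. Of the 9 genes, 5 matched an entry. Capitals mark exact matches, on either strand, to the motifs searched: GGAATG of TEAD factors, the Smad elements CAGACA and GTCTAGAC, ACGTG of the hypoxia response, the AP-1 site TGANTCA, and the CArG box of SRF.
Tgfbi, chr13:56609336-56609585, plus strand: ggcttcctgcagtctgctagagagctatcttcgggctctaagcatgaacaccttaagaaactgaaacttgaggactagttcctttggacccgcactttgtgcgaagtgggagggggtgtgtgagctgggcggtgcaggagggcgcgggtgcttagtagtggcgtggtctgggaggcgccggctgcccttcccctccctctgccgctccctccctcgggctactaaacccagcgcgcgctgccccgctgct
Cyr61, chr3:145649986-145650235, minus strand: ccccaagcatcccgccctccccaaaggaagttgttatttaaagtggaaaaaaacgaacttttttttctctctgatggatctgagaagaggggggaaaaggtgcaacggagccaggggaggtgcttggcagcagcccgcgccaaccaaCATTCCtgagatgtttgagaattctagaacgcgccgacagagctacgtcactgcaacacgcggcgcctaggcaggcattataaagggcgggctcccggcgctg
Tgfb2, chr1:186705990-186706239, minus strand: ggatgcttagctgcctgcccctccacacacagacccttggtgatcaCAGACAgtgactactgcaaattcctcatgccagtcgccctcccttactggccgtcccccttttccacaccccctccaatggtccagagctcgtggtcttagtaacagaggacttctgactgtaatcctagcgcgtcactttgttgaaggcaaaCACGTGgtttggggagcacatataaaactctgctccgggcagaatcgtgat
Tgfb1, chr7:25686752-25687001, plus strand: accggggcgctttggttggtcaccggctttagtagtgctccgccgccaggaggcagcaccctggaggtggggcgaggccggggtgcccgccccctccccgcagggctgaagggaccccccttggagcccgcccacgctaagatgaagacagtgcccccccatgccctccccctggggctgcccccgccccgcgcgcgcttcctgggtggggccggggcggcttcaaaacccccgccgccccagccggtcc

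The Cyr61 promoter held 1 TEAD match, whose first base lay 103 bases before the start, and no other motif of the set. A TEAD match stood in 14.7% of the 32851 promoter windows of the table, each of which also takes in the first 50 bases after the start. The Tgfb2 promoter held the Smad element CAGACA, found in 21.0% of windows, at 204 bases before the start. It also held CACGTG at 51 bases before the start, where the hypoxia core and its reverse complement overlap. That core was found in 19.6% of windows. In the window of Tgfbi none of these letters matched, nor in that of Tgfb1. The window of Thbs2 held 2 matches of the Smad element and none of the others. The other motifs were found in 0.2% of windows for GTCTAGAC, 7.8% for AP-1 and 1.6% for the CArG box. A match is a run of letters and was not tested as a binding site.

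**Figure D1:**
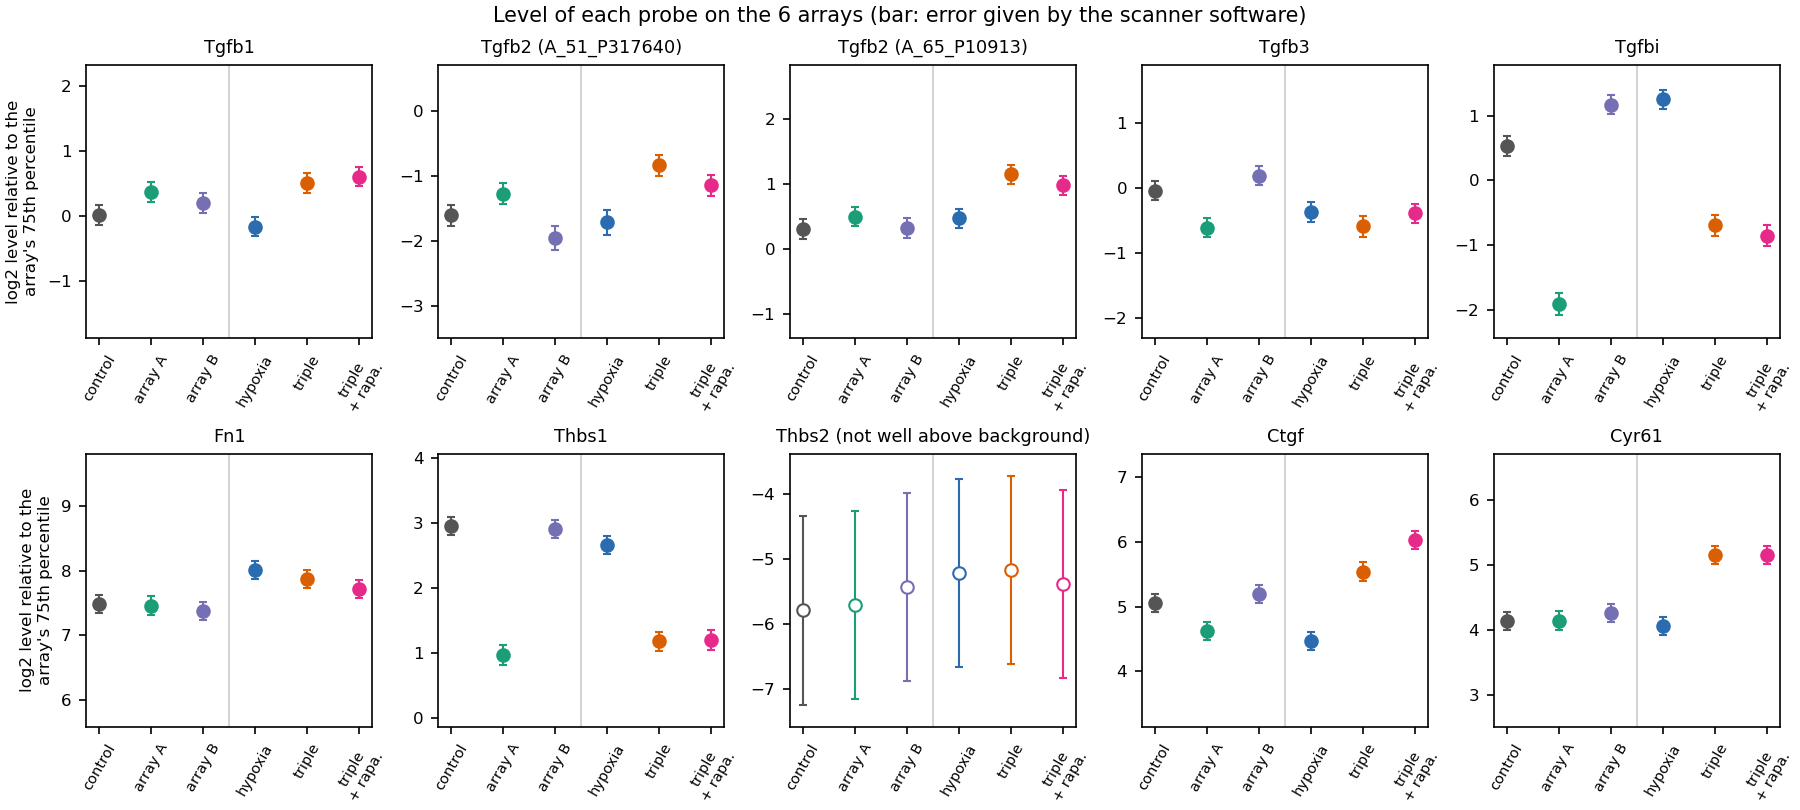
Log2 level of each of the 10 probes on the 6 arrays, with 1 point per array and the scanner software's error as the bar. A grey line separates 20% from 1% oxygen, every vertical axis has the same width around its own centre, and open points (Thbs2) were not well above background. Tgfbi and Thbs1 are low on array A and on both arrays with triple stimuli, while Cyr61 is high on the latter pair only.

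Tgfb1, the ligand most often linked to kidney fibrosis (probe on mm9 chromosome 7, 26489877 to 26489936), had a level of 0.02 in control, 0.37 on array A and 0.20 on array B. It was -0.16 in hypoxia, 0.51 in triple stimuli and 0.61 with rapamycin added. It was lowest in hypoxia and highest on both arrays with triple stimuli. No pair of neighbours in this order was further apart than the software's combined error of 0.21, which is not reduced for 10 spots. The 10 spots gave a closer measure of the technical spread, with an SD between 0.04 and 0.12 on an array. The difference was 0.49 ± 0.21 for triple stimuli against control, and 9 of the 9 spots unmarked on both arrays were above 0 (0.30 to 0.70). Against hypoxia, triple stimuli differed by 0.67 ± 0.21, with all 10 spots between 0.51 and 0.86. The value on array A was 0.34 ± 0.21 (9 of 9 spots above 0), and hypoxia alone gave -0.18 ± 0.21 (8 of 9 spots below 0). All of these were under 2-fold.

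Tgfb3 (chromosome 12, 87397804 to 87397863) is a ligand known from palate and wound repair. Its level was -0.04 in control, -0.61 on array A and 0.19 on array B, then -0.37 for hypoxia, -0.59 in triple stimuli and -0.39 with rapamycin. Array A and the 3 arrays at 1% oxygen lay below control and array B. The SD over spots was between 0.10 and 0.22. On array A the difference was -0.57 ± 0.21, and the 8 spots unmarked on both arrays lay between -0.68 and -0.46. Hypoxia gave -0.32 ± 0.21 and triple stimuli -0.55 ± 0.22, each with 10 of 10 spots below 0. On array B it was 0.23 ± 0.21, with 9 of 9 spots above 0. Tgfb1 and Tgfb3 thus had opposite signs on array A and in triple stimuli against control, and the same sign on array B and in hypoxia. Over the spots outside the first 64 rows of the array the means were -0.59, -0.30 and -0.54 on array A, in hypoxia and in triple stimuli.

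**Figure D2:**
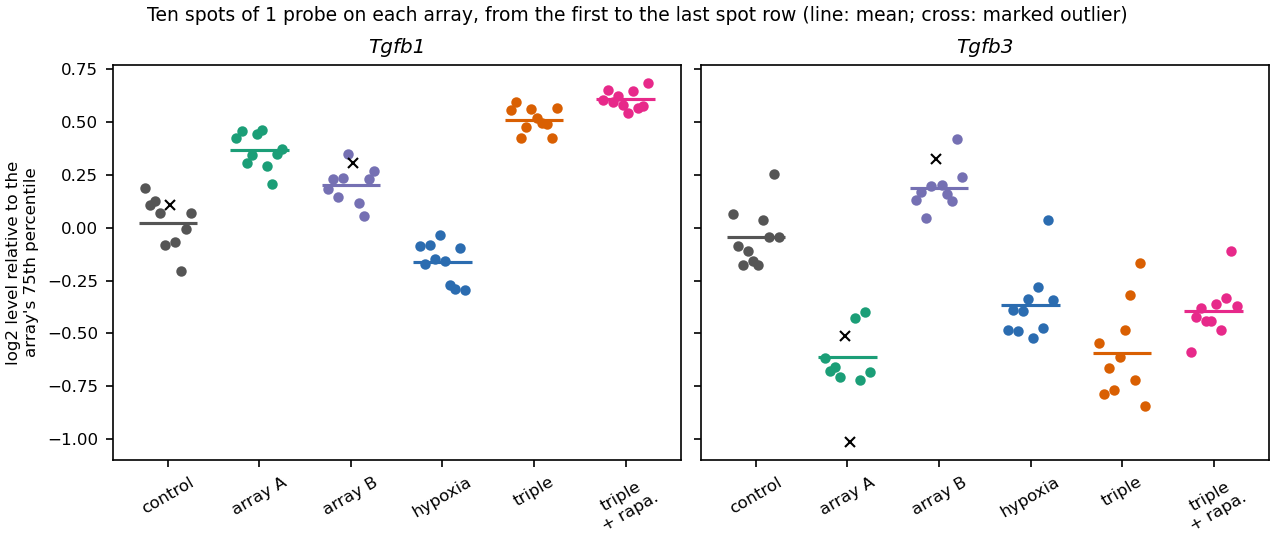
Log2 level of the single spots of the Tgfb1 and Tgfb3 probes on each array, ordered by spot row within an array. Lines are the means of the unmarked spots and crosses are spots that the scanner software marked as outliers. Spots of Tgfb1 in triple stimuli (0.42 to 0.60) do not overlap those of control (-0.205 to 0.19) or hypoxia (-0.29 to -0.03). They do overlap those of array A (0.21 to 0.46). All spots of an array share 1 RNA sample and show technical spread only.

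Tgfb2, a ligand with a large part in kidney development, was read by probes on chromosome 1 at 188449333 to 188449392 (A_65_P10913) and at 188447534 to 188447593 (A_51_P317640). The first gave 0.31 in control, 0.50 on array A and 0.32 on array B, then 0.47 for hypoxia, 1.15 in triple stimuli and 0.98 with rapamycin. The second gave -1.60, -1.27, -1.95, -1.71, -0.83 and -1.14 on the same arrays. Both probes were highest in triple stimuli and next highest with rapamycin added. Triple stimuli against control gave 0.84 ± 0.21 with the first and 0.77 ± 0.23 with the second, and against hypoxia 0.68 ± 0.21 and 0.88 ± 0.25. On array B the probes parted, at 0.01 ± 0.21 and -0.35 ± 0.25. Over 4303 genes with at least 2 probes above background in that comparison the median gap between the brightest pair was 0.12, and 95% of gaps were within 0.50. Neither probe reached 2-fold in any comparison.

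Tgfbi encodes a secreted protein that binds integrins and collagen and takes its name from its induction by TGF-beta. Its level (chromosome 13, 56740460 to 56740519) was 0.53 in control, -1.90 on array A and 1.17 on array B, then 1.25 for hypoxia, -0.69 in triple stimuli and -0.85 with rapamycin. It spanned 3.15 on the log2 scale over the 6 arrays, and the 3 low arrays were array A and the pair with triple stimuli. In the order of levels, array B and hypoxia were not separated (gap 0.08, combined error 0.21), nor were the pair with triple stimuli (0.16, 0.23). All other gaps were at least 0.64. Against control Tgfbi was 5.39-fold lower on array A (-2.43 ± 0.23), and only 3 of 17824 measured genes, itself included, were as low or lower. In triple stimuli it was 2.34-fold lower (-1.22 ± 0.22), a value that became -0.98 with normexp background correction and so ended under 2-fold. In hypoxia it was higher than control by 0.72 ± 0.21 and on array B by 0.64 ± 0.21, both under 2-fold. On array B, 1.36% of measured genes were as high or higher, and in hypoxia 6.45% were. From hypoxia to triple stimuli the level fell by 1.94 on the log2 scale, a 3.85-fold difference. A single spot carries all of these values.

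Thbs1 encodes thrombospondin-1, a matricellular protein that can activate latent TGF-beta and that inhibits angiogenesis. Its level (chromosome 2, 117952585 to 117952644) was 2.96 in control, 0.97 on array A and 2.91 on array B, then 2.66 for hypoxia, 1.18 in triple stimuli and 1.20 with rapamycin. The arrays fell in 2 ranges, 0.97 to 1.20 on array A and the pair with triple stimuli and 2.66 to 2.96 on the rest. These ranges were drawn after the values were seen, and the share of all genes that split in this way was not counted. Within the low range no neighbours were further apart than the combined error of 0.21. Thbs1 was 3.96-fold lower than control on array A (-1.99 ± 0.21), 3.44-fold lower in triple stimuli (-1.78 ± 0.21) and 2.79-fold lower in triple stimuli than in hypoxia (-1.48 ± 0.21). On array A 10 of 17824 measured genes were as low or lower, and in triple stimuli 24 of 17803. Array B (-0.05 ± 0.20) and hypoxia (-0.30 ± 0.20) differed little from control, and adding rapamycin gave 0.02 ± 0.21. Thrombospondin-1 is abundant in platelets, and 1 of 5 platelet markers, the chemokine gene Ppbp, was low on the same arrays as Thbs1 and Tgfbi. The summed level of the 5 came mostly from Ppbp. It was 2.54 in control, 1.05 on array A and 2.87 on array B, then 2.68 for hypoxia, 1.06 in triple stimuli and 0.738 with rapamycin. Ppbp had levels of 1.29, -0.15, 1.52, 1.42, -0.16 and -0.81 on the arrays in that order. Itga2b, above background on 4 arrays, ran against it at -3.29, -2.78, -3.44, -2.99, -2.58 and -2.56, and the defining markers Pf4, Gp1ba and Gp9 were above background on no array.

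Some markers of other lists were also lowest on the low arrays of Tgfbi and Thbs1. In the same order of arrays, the proximal tubule markers were at 3.53, 2.85, 3.34, 3.74, 2.43 and 2.03 for Lrp2, the endocytic receptor megalin. Aqp1, a water channel gene, was at 3.20, 2.0, 3.70, 3.09, 2.27 and 1.79, and Cdh16, a kidney cadherin gene, at 6.84, 6.31, 6.92, 7.17, 6.44 and 6.30. All 3 were lowest on array A and the pair with triple stimuli, while Krt8, Krt18, Pax8, Cubn and Ggt1 did not follow that split. That split of arrays was taken from the Tgfbi and Thbs1 values, and the share of all genes that show it was not counted. The summed level of the list was 321, 256, 342, 348, 313 and 304. Csf1r, a macrophage receptor gene, Aqp2, a collecting duct water channel gene, and the podocyte marker Synpo were also lowest on these arrays. Csf1r was at 3.27 to 3.68 on them, close to its 3.72 on array B, and Aqp2 at -1.79 to -1.72. Synpo was at -1.03 to -0.07 on them, close to its 0.02 in control. Cd68, a lysosomal gene used as a macrophage marker, was highest on these arrays, at -0.87, 1.05, -0.82, -0.57, 0.52 and -0.27. The other leukocyte markers above background, Itgam and Cd3e, did not follow the split. Itgam was at 3.01, 3.17, 2.92, 3.35, 3.24 and 3.13, and Cd3e at 0.27, 0.30, 0.35, 0.34, 0.31 and 0.05. The part of these markers in the Tgfbi and Thbs1 values was not tested.

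Thbs2, the thrombospondin that does not activate TGF-beta, was not well above background on any array, and its levels of -5.79 to -5.17 give no difference (chromosome 17, probe ends at 14804526 and 14805789). The lowest signals called well above background stood between -3.65 and -3.08 on these arrays.

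Fn1, which encodes fibronectin, the matrix glycoprotein laid down early in fibrosis, was the member with the narrowest span among those above background (0.63). Its level (chromosome 1, 71632116 to 71632175) was 7.48 in control, 7.46 on array A and 7.38 on array B, then 8.01 for hypoxia, 7.87 in triple stimuli and 7.72 with rapamycin. The 3 arrays at 1% oxygen (7.72 to 8.01) all lay above the 3 at 20% (7.38 to 7.48). Of 19149 genes above background on at least 1 array, 11.2% had all arrays at 1% above all at 20%, and 14.3% the reverse. Of the 8 genes measured here Fn1 alone had ranges that did not overlap. The 3 arrays of a range are different conditions and share a slide row. Hypoxia against control gave 0.54 ± 0.20 and triple stimuli 0.39 ± 0.20, both under 2-fold, and 8.77% of measured genes were as high or higher in hypoxia. With normexp the triple stimuli value was 0.19.

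Ctgf encodes a CCN family protein that binds integrins and growth factors and is a marker of fibrosis. Its level (chromosome 10, 24318281 to 24318340) was 5.06 in control, 4.62 on array A and 5.19 on array B, then 4.47 for hypoxia, 5.54 in triple stimuli and 6.03 with rapamycin. It was lowest in hypoxia and highest with rapamycin, and the gap between the pair with triple stimuli (0.49) was above the combined error of 0.20. Hypoxia against control gave -0.59 ± 0.20, where 2.87% of measured genes were as low or lower, and array A gave -0.44 ± 0.20. Triple stimuli gave 0.48 ± 0.20 against control and 1.07 ± 0.20 against hypoxia, where Ctgf was 2.1-fold higher. Rapamycin added to triple stimuli gave 0.49 ± 0.20, a value that 5.60% of measured genes reached or passed.

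Cyr61 encodes another CCN family protein, an immediate early gene product that supports adhesion. Its level (chromosome 3, 145310187 to 145310246) was 4.13 in control, 4.14 on array A and 4.26 on array B, then 4.06 for hypoxia, and 5.15 both in triple stimuli and with rapamycin. The pair with triple stimuli stood 0.89 above the next array, and the other 4 were not separated from their neighbours (gaps up to 0.12, combined error 0.20). Triple stimuli against control gave 1.02 ± 0.20, a 2.03-fold difference that 4.90% of measured genes reached or passed. The 2-fold call ended with the array median as the scale (0.91), with quantile normalization (just under the threshold) and with normexp (0.95). Against hypoxia Cyr61 was 2.13-fold higher (1.09 ± 0.20), with 3.07% of genes as high or higher. The addition of rapamycin gave 0.00 ± 0.20.

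**Figure D3:**
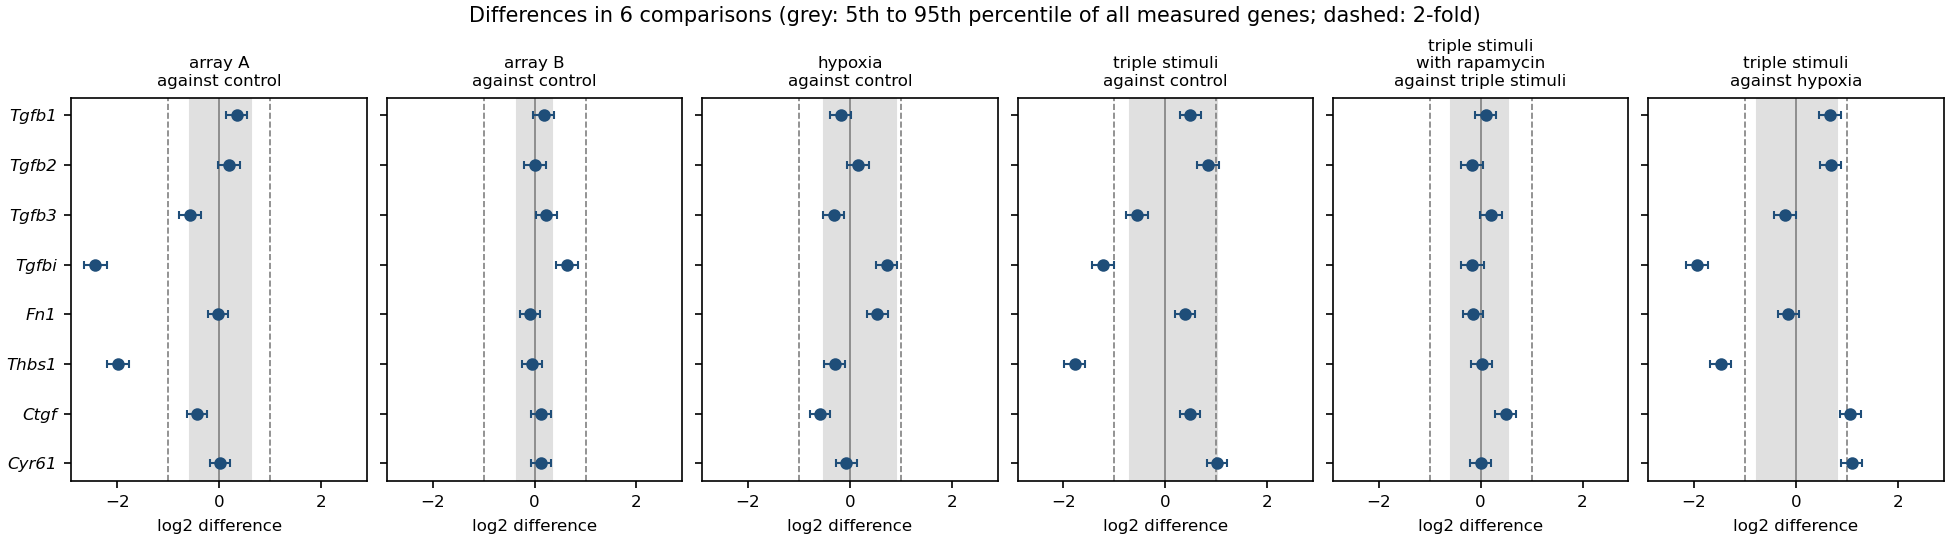
Log2 difference of the 8 measured genes in each of the 6 comparisons, with the software's combined error as the bar. The grey band is the 5th to 95th percentile of all measured genes and dashed lines mark 2-fold. Tgfbi and Thbs1 lie below the band on array A, in triple stimuli against control and in triple stimuli against hypoxia.

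Set against all genes, 2 of the 8 measured members were at least 2-fold lower than control on array A (Tgfbi and Thbs1) and 0 higher, where 0.903% of 17824 genes were lower and 1.57% higher. The members' median was -0.23, against -0.01 over all genes. On array B 0 members were called, with 0.308% of genes higher and 0.28% lower, and the median was 0.13 against 0.02. In hypoxia 0 were called, with 4.41% higher and 0.461% lower, and the median was -0.12 against -0.01. In triple stimuli against control 2 were lower (Tgfbi and Thbs1) and 1 higher (Cyr61), beside 1.74% of genes lower and 5.09% higher, and the median was 0.43 against -0.01. In triple stimuli against hypoxia 2 were lower (Tgfbi and Thbs1) and 2 higher (Ctgf and Cyr61), beside 3.03% lower and 3.51% higher, with a median of 0.26 against -0.03. Rapamycin added to triple stimuli gave 0 calls among the members, 2.14% of genes lower and 1.94% higher, and a median of 0.01 against -0.03.

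The rest of the pathway was read from lists of 114 genes, all of which were on the arrays. The counts for each list are to be read beside the shares of all genes called in the same comparison, given in the previous paragraph. Of 20 genes of TGF-beta latency and activation 14 were measured. On array A 1 was at least 2-fold lower, Itgb6 (-1.10), which encodes the integrin chain that releases TGF-beta from its latent complex in epithelia. Its level was 1.57 in control and 0.47 on array A, and its other probe gave -1.23. The median of this list was -0.19 on array A and -0.25 in triple stimuli, where 0 were called. Of 8 receptors and co-receptors 6 or 7 were measured and 0 differed by 2-fold in any comparison. Tgfbr2, the receptor that binds the ligand, was chosen after its values were seen and differed from control by -0.50 on array A, -0.40 in hypoxia and -0.43 in triple stimuli.

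Of 14 Smads and regulators, Smad6, an inhibitory Smad best known as a target of bone morphogenetic proteins, was lower on array A (-1.31). In triple stimuli it was not well above background, and its difference from control was -1.88 or lower. Its spot lies in the first 64 rows. Tgif1, a corepressor of Smad2, was higher in triple stimuli against control (1.27) and against hypoxia (1.37). Smad7 and Pmepa1, a pair of inhibitors that TGF-beta itself induces, were chosen after their values were seen. Smad7 was at 0.27 and Pmepa1 at -0.76 in triple stimuli against control, and rapamycin added to triple stimuli gave 0.37 and 0.80. Skil, another Smad regulator on the list of TGF-beta targets and chosen in the same way, was at 0.96 and 0.17.

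Of 30 textbook TGF-beta targets outside the 9 genes, 24 or 25 were measured against control, of which 0 were called on array A and on array B. In hypoxia 3 were higher and 0 lower, beside 4.41% of all genes higher and 0.461% lower. Among them were Junb, a member of the AP-1 family (1.32), and Cdkn1a, a cell cycle inhibitor (1.29, from a spot in the first 64 rows). In triple stimuli 4 were higher and 0 lower, among them Junb (2.51), Cdkn1a (1.65) and Tgif1, beside 5.09% of all genes higher and 1.74% lower. Junb was dim in control, at a level of -2.39, against 0.12 in triple stimuli. The other probes of Cdkn1a gave at least 1.27 and at most -0.22 in triple stimuli, so its probes disagree. Junb, Cdkn1a and Tgif1 answer to TGF-beta and to other regulators, and the part of each in these values was not tested. Against hypoxia, triple stimuli held 4 higher: Tgif1, Junb (1.19) and Snai2 (1.48) and Zeb2 (1.10), both repressors of epithelial genes. Over all genes 3.51% were higher in that comparison. Rapamycin added 1 call, Il11 (1.01), which encodes a cytokine of the IL-6 family, beside 1.94% of all genes higher. The list's median was -0.13 on array A, 0.03 in hypoxia and 0.23 in triple stimuli.

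Among 16 matricellular relatives, of which 6 to 8 were measured, Postn, the periostin gene, was above background in triple stimuli alone and higher than control by at least 1.17 on the log2 scale, from a spot in the first 64 rows. Fbln2, a fibulin gene, was lower in triple stimuli than in hypoxia (-1.15). Of 18 genes around YAP, TAZ and TEAD, 1 was above 0 on array A, and the median was -0.25 against -0.01 over all genes. Arhgef17, which encodes a guanine nucleotide exchange factor, was called lower there at -1.15. It was lower in triple stimuli too (-1.10), where 6 of the 18 were above 0 and the median was -0.15. Ankrd1, a textbook YAP target chosen after its values were seen, was at -0.20 on array A and 0.34 in triple stimuli. Amotl2, Axl and Lats2 of the same list, also chosen after their values were seen, were at -0.46, -0.26 and -0.23 in triple stimuli. The 6 genes above 0 there included Vgll4 (0.74) and Dlc1 (0.54), chosen in the same way. Of 14 measured receptors for thrombospondins, fibronectin and Ccn proteins, Itga2, a collagen receptor chain, was higher in hypoxia (1.21) and 0 others were called in any comparison.

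**Figure D4:**
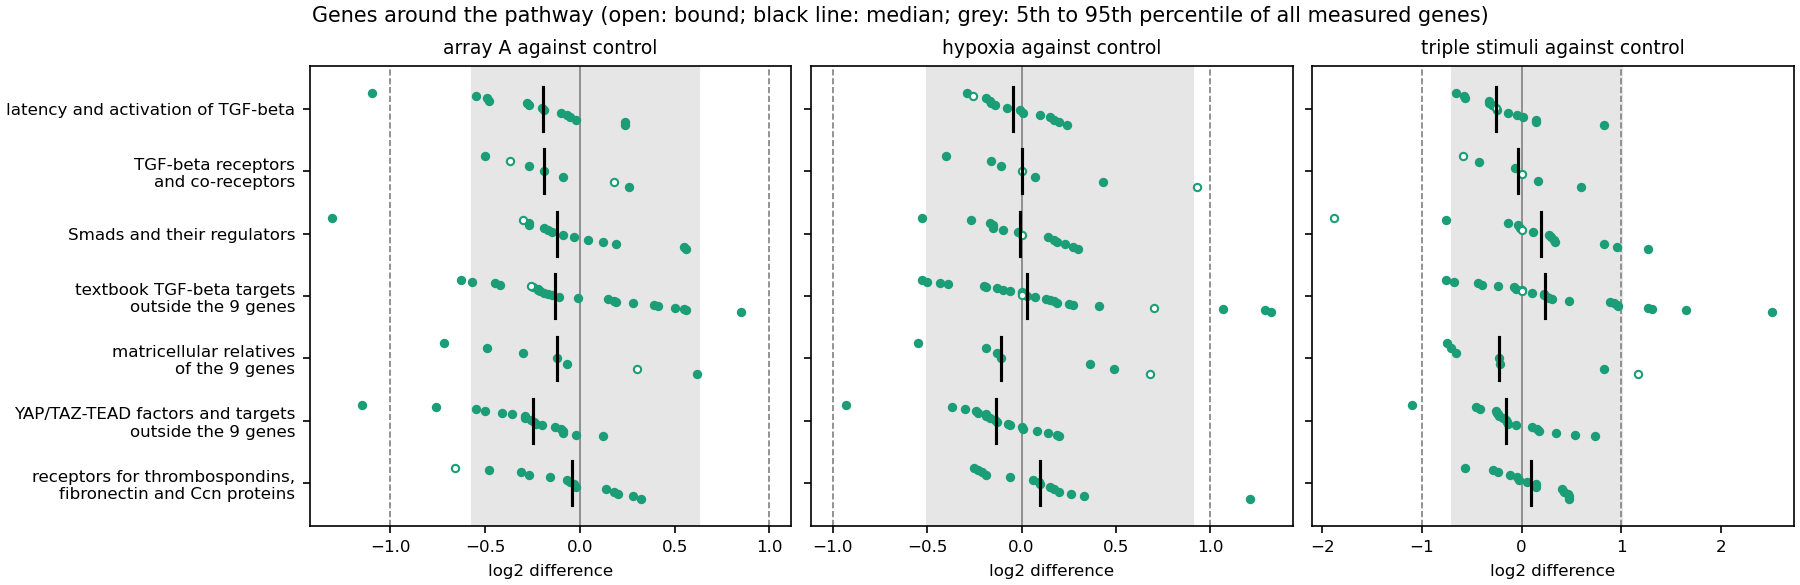
Log2 difference of each measured gene of 7 lists around the pathway, without the 9 genes, on array A, in hypoxia and in triple stimuli, each against control. Open points are bounds, black lines are list medians, the grey band is the 5th to 95th percentile of all measured genes, and the horizontal range differs between panels. Smad6 on array A and Junb in triple stimuli are among those outside.

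Patterns over the 6 arrays were compared by the root mean square difference of levels after each gene's own mean was taken off, among 15088 genes above background on all 6. All these points share the 6 arrays, so likeness is a description. Nearest to Tgfbi was Id3, which blocks DNA binding by helix-loop-helix proteins (0.31), followed by Fam19a5 (0.36) and Gm12824 (0.41). Thbs1 had Id3 (0.23), Gm12824 (0.23) and Prrx2 (0.24). Id3 was at 3.86 in control, 1.77 on array A and 4.29 on array B, then 3.97 for hypoxia, 2.26 in triple stimuli and 2.55 with rapamycin. Tgfbi and Thbs1 differed from each other by 0.48. For Ctgf the nearest were Sema7a (0.21), Cyp21a1 (0.22) and Zswim4 (0.22), and for Cyr61 they were Csrnp1 (0.10), Cdkn2aip (0.13) and Tmem88 (0.13). Ctgf and Cyr61 differed by 0.25, and Cyr61 was nearer to Tgfb2 (0.20) than to Ctgf. Tgfb1 and Tgfb2 differed by 0.21, and Tgfb1 and Tgfb3 by 0.47.

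**Figure D5:**
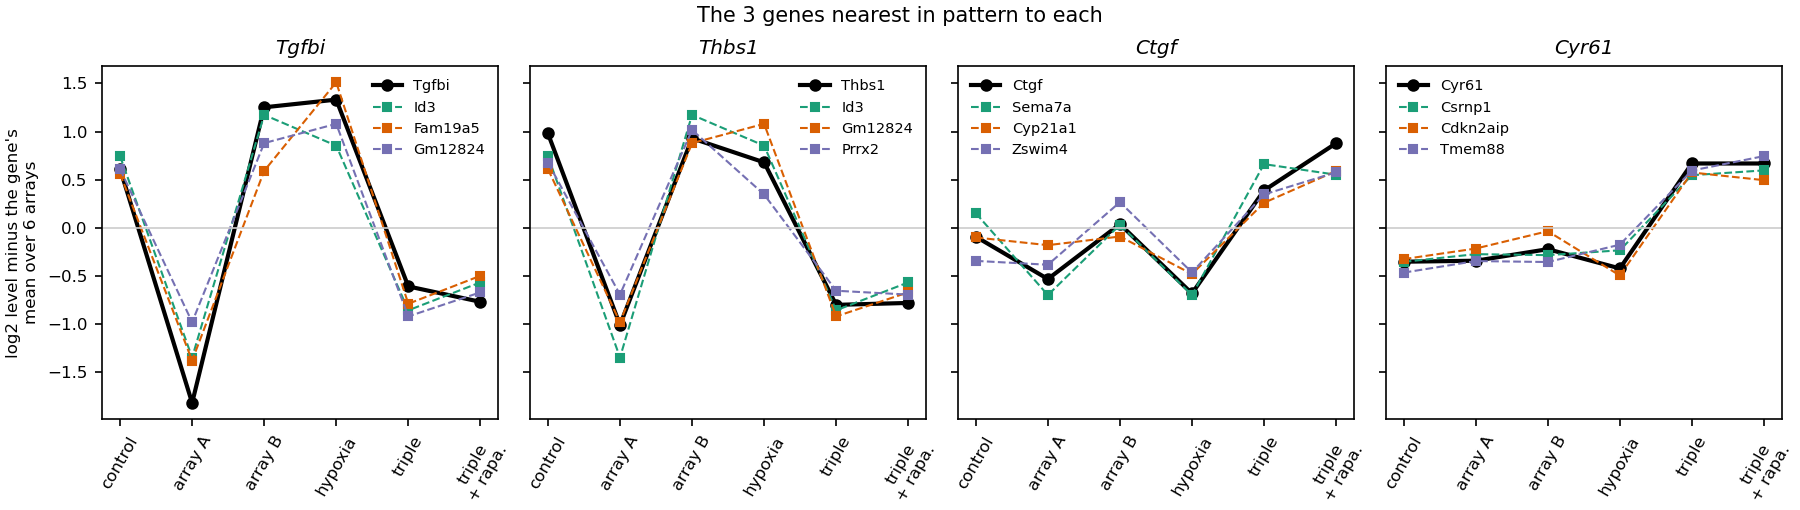
Log2 level minus the gene's mean over the 6 arrays for Tgfbi, Thbs1, Ctgf and Cyr61 (black) and the 3 genes nearest to each in pattern (dashed). The same gene, Id3, is nearest to both Tgfbi and Thbs1, with low points on array A and on both arrays with triple stimuli.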

How the data were processed

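Total RNA of 6 samples was hybridised to 6 arrays. Per the file headers, the authors scanned 1 colour (Cy3) and read the arrays with Agilent Feature Extraction 10.7.3.1, also named in the submitters' processing notes, which gave each spot a background-subtracted, detrended signal intensity and an error. The deposited value table holds, read from its values, a ratio proportional to the same signal within each array, with a median of 0.0505 (control) to 0.0562 (hypoxia). Outlier marks and calls above background are other columns of the deposited files.

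Here log2 signals were reduced by the log2 75th percentile of non-control spots, and unmarked spots of a probe were averaged. Dropping marked spots only, not whole probes, kept Tgfb1 and Tgfb3. A gene was read by its probe with the highest mean and entered a comparison when well above background on at least 1 array. A dim side was raised to the lowest such signal of its array, which gives "at least" values. Named by rule were the 9 genes, list genes at least 2-fold different (up to 4 per list and comparison) and the 3 nearest patterns. Cell type markers were named too, as were some further list genes, which are marked in the text as chosen after their values were seen. The genes and lists were chosen with earlier results of these data known. One gene of the target list is counted but not reported by name here. Calling was tested on simulated data, with changes well past 2-fold planted in genes that were not dim. The test therefore does not cover differences near 2-fold or dim genes. limma 3.58.1 (R 4.3.3) gave normexp; Python 3.11.15 the rest. Probe positions are on mm9, and exons or untranslated regions were not annotated.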

Additional observations from a re-analysis of the deposited data

How the results depend on the processing

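The 54 measured differences of the 9 probes above background were recomputed under 8 alternatives. No called difference changed sign, and the largest move was 0.67, for Tgfbi on array A with normexp (-1.76). Normexp moved 4 others by more than the software's error: Tgfbi in triple stimuli against control (-0.98) and against hypoxia (-1.60), Fn1 in triple stimuli (0.19) and the dimmer Tgfb2 probe in triple stimuli against hypoxia (0.58). The count of members higher in triple stimuli against control went from 1 to 0 with the array median, quantile normalization and normexp, and the count lower from 2 to 1 with normexp. At 1.5-fold, 1 member was higher on array B and in hypoxia (Tgfbi), 1 lower in hypoxia (Ctgf), 2 higher in triple stimuli and 4 higher against hypoxia. With the array median, the median of all genes was -0.165 in hypoxia and -0.118 in triple stimuli. The share of calls that were higher went from 63.4% to 52.4% on array A, from 90.5% to 79.2% in hypoxia and from 74.6% to 61.6% in triple stimuli. With normexp it was 80.0% on array A and 70.0% on array B (main 52.4%). Over all genes, counts higher and lower went with normexp from 279 and 161 to 144 and 36 on array A, from 54 and 49 to 14 and 6 on array B, from 785 and 82 to 493 and 19 in hypoxia, from 906 and 309 to 515 and 115 in triple stimuli, from 334 and 370 to 152 and 166 with rapamycin, and from 599 and 518 to 315 and 224 in triple stimuli against hypoxia. With a signal above background asked of both arrays, they were 96 lower on array A, 19 and 13 on array B, 397 and 45 in hypoxia, 489 higher in triple stimuli, 58 and 89 with rapamycin and 307 and 208 against hypoxia. Genes lower in hypoxia were 165 with the array median and 134 with quantile normalization, and genes lower in triple stimuli against control 465 with the array median. The 1.5-fold rule called, in the same order, 1049 and 823, 304 and 257, 1435 and 535, 1950 and 1369, 717 and 852, and 1452 and 1355. Leaving out every probe with a marked spot, chosen after seeing the data, removed Tgfb1 and Tgfb3. No paired analysis was possible because each condition has 1 array, and no array could be left out.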
